A study of Mus musculus with 4 samples.

Results

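Replication timing was described at 6 loci that hold cell cycle guard genes, Cdkn2a, Cdkn1a, Rb1, Trp53, Mdm2 and Myc, in cultured mouse embryonic fibroblasts. Members were the array probes whose midpoint lay within 100 kb of a fixed position for each gene on mouse build mm9. They numbered 102 of 170183 probes on the autosomes and X, and 100 of them were usable on all arrays. The study compared 4 groups with 1 array of 2 colours in each: a control, a knockout (KO), whose floxed SUV4-20H1 allele is given as deleted, a non-induced Suv4-20h mutant and the induced mutant. SUV4-20H1 is a histone methyltransferase that acts on histone H4. All groups carry the same cell line name, but the growth and treatment texts give that line another number. How induction was done, whether the lines are single clones and whether they were immortalized is not said in the labels. All cells were grown in 10% serum with 3% O2 and 5% CO2, and per the labels' protocols the floxed allele was deleted with 4-hydroxytamoxifen (1 mM, 24 hours). New DNA was marked for 1 hour with the thymidine analogue BrdU (50 µM), and 80000 cells were split by sorting into early and late S phase. Marked DNA of each fraction was immunoprecipitated and amplified, and the early (Cy3) and late (Cy5) DNA shared an array, with no dye swap. Timing is log2 of early over late signal minus the autosomal median of the array, so a higher value means earlier replication.

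The 6 genes act in the circuits that decide whether damaged or stressed cells go on dividing. Cdkn2a encodes p16, which keeps the retinoblastoma protein active by blocking cyclin D kinases, and p19Arf, which frees p53 by binding Mdm2. Trp53 encodes p53, a transcription factor that induces Cdkn1a, the gene of the kinase inhibitor p21, and also Mdm2, its own ubiquitin ligase. Rb1 encodes the retinoblastoma protein, which restrains E2F factors and entry into S phase, and Myc encodes a transcription factor that drives growth and division. Cultured mouse fibroblasts that escape senescence often carry losses of Cdkn2a or mutations of Trp53, and copy number changes at these loci are known from many cultured lines.

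The loci were covered unevenly. Cdkn2a had 11 probes, on chromosome 4 between 88830688 and 89017335, and the widest gap between its probes was 55568 bp. Trp53 had 19 usable probes of 20 on chromosome 11 between 69313399 and 69496349, and Cdkn1a had 18 of 19 on chromosome 17 between 29139531 and 29324393. Rb1 was the most densely covered, with 22 probes on chromosome 14 between 73567456 and 73753682. Mdm2 had 18 probes on chromosome 10 between 117041220 and 117227044. Myc had 12 probes on chromosome 15 between 61780270 and 61916002, and none in the first part of its 200 kb, which began at 61720000. The files pair probes with positions only, so whether a probe lies in an exon, an intron or outside a gene was not analysed here. In the order of RefSeq genes on GRCm38.p6, Cdkn2a lies between Mtap and Cdkn2b, Trp53 between Wrap53 and Atp1b2, Cdkn1a between Srsf3 and Rab44, and Mdm2 between Cpm and Slc35e3.

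The KO array stood apart in its sex chromosomes. Of 122 Y probes, 107 exceeded background clearly in both channels on it, against 50 on the control, 53 on the non-induced and 41 on the induced array, and its total signal on X was lower than that of control by a median of -0.57. The embryos or lines of origin and the deletion therefore cannot be told apart in KO against control values, none of which can be given without this array. Control and KO lay on 1 slide and the other two arrays on another. Among autosomal spots, 89.1 to 94.9% exceeded background clearly in both channels, and the median SD of timing between repeated spots of a probe was 0.12 to 0.16. With 1 array per group there is no spread between cultures and no test between groups. Errors below are standard errors (SE) over the probes of a locus, which measure variation along the locus and between probes only. No fibroblast marker could be checked, since DNA was measured and not RNA.

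All 6 loci replicated early on all 4 arrays. Every locus lay above the median 200 kb window of its array, as did 39.5% of the 12000 windows of the genome that had at least 5 probes. Locus means ranged from 0.36 to 1.37, while the median window of the control, KO, non-induced and induced arrays lay at -0.16, -0.39, -0.26 and -0.51.

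**Figure D1:**
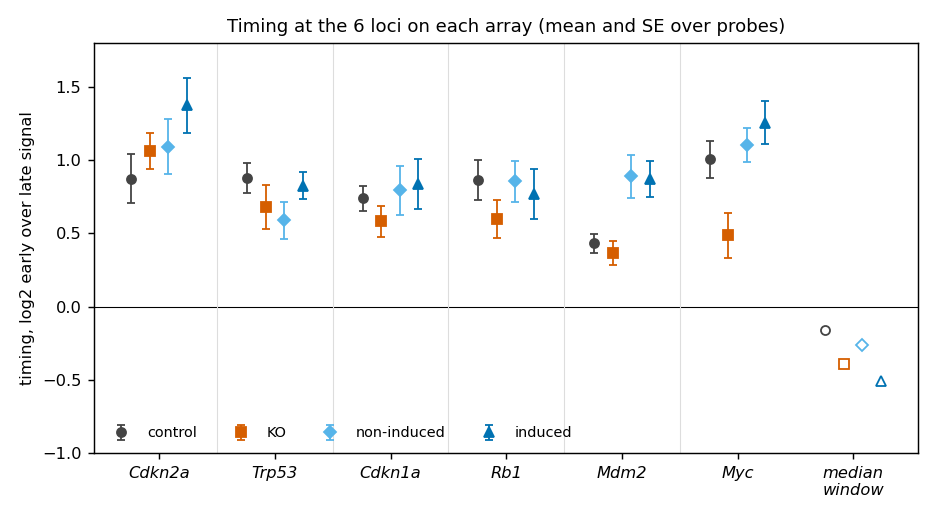
Timing (y axis, log2 of early over late signal, centred on the autosomal median) of the 6 loci on the 4 arrays, as the mean and SE over 11 to 22 probes, with the median 200 kb window of each array as open symbols on the right. All locus means lie above the open symbols, and Myc in KO cells, at 0.49, lies below the other 3 arrays at that locus.

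Among the kinase inhibitors, Cdkn2a had timing of 0.87 ± 0.17 (control), 1.06 ± 0.12 (KO), 1.09 ± 0.19 (non-induced) and 1.37 ± 0.19 (induced) (SE over 11 probes). It was above 89.7, 96.4, 97.1 and 99.2% of windows in that order, so that it belonged to the earliest parts of the genome on each array. A single probe, 76.8 kb before the locus position, was the lowest on all arrays, at -0.32, 0.18, -0.12 and -0.23. Cdkn1a, the gene of p21, had 0.74 ± 0.09, 0.58 ± 0.11, 0.79 ± 0.16 and 0.84 ± 0.17 in the same order of arrays (18 probes). Its place among windows was lower, above 71.8 to 83.1% of them.

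Rb1 had timing of 0.86 ± 0.13 (control), 0.60 ± 0.13 (KO), 0.85 ± 0.14 (non-induced) and 0.77 ± 0.17 (induced) (22 probes). Between 20 and 21 of its probes were above 0 on each array. The same probe, 53.3 kb before the locus position, was the latest on all arrays, at -1.15, -1.76, -1.34 and -2.09 in that order. Trp53 had 0.88 ± 0.10, 0.68 ± 0.15, 0.59 ± 0.12 and 0.82 ± 0.09 in the same order (19 probes). Control was the highest and non-induced the lowest of these. A dim probe 69.9 kb before the Trp53 position weighed on these means, with timing of 1.99, -1.67, 2.12 and 0.51 in that order. Without it, which was tried after its values were seen, Trp53 had 0.81 ± 0.09, 0.81 ± 0.08, 0.50 ± 0.10 and 0.84 ± 0.10.

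Mdm2, the ligase that degrades p53, had 0.43 ± 0.06 in control and 0.36 ± 0.08 in KO cells, against 0.89 ± 0.15 in non-induced and 0.87 ± 0.12 in induced cells (18 probes). The arrays therefore fell into a lower and a higher pair at this locus, and the pairs are also the slides. Myc had 1.01 ± 0.13 (control), 0.49 ± 0.16 (KO), 1.10 ± 0.12 (non-induced) and 1.25 ± 0.15 (induced) (12 probes). Myc was above 95.8, 97.4 and 96.8% of windows on the control, non-induced and induced arrays, and above 68.4% on the KO array.

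The order of the loci differed between arrays, and most neighbours in it could not be separated. Myc came first in control and non-induced cells and Cdkn2a in KO and induced cells. Mdm2 came last in control and KO cells, Trp53 in non-induced and Rb1 in induced cells. Of the 5 steps from a locus to the next on each array, only that from Cdkn1a to Mdm2 in control cells, 0.31 ± 0.11, was more than 2 times its combined SE. The distance from the first to the last locus was 0.58 ± 0.14 (control), 0.70 ± 0.15 (KO), 0.51 ± 0.17 (non-induced) and 0.61 ± 0.25 (induced).

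The neighbourhoods of the loci were of 2 kinds. Trp53 and Cdkn1a lay inside early domains: all 11 bins of 200 kb from 1 Mb before to 1 Mb after them were above 0 on all 4 arrays. Around Trp53 these bins ranged from 0.40 to 1.28, and around Cdkn1a from 0.40 to 1.13. The other loci lay in early stretches with a fall to late timing within the same 2 Mb.

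Cdkn2a lay close to such a border, with early DNA before it and late DNA after it. At 400 kb after the locus, timing was 0.01 (control), -0.62 (KO), 0.78 (non-induced) and 0.70 (induced), on 9 probes. At 800 kb after it, on 4 probes, all arrays were below 0, at -0.65, -1.44, -0.86 and -1.01. Over all probes between 100 kb and 1 Mb on both sides, KO was lower than control by -0.39 ± 0.04 (SE over 111 probes), while at the locus itself it was higher by 0.19 ± 0.12. The KO profile thus had its highest bin at the locus, at 1.06, with -0.07 in the next bin after it.

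Rb1 lay after a late stretch, with values from -1.49 to -1.03 at 1 Mb before it. After the locus the arrays separated: at 800 kb, timing was 0.41 (control) and 0.50 (KO) but -0.80 in non-induced and -0.57 in induced cells (12 probes). This split again follows the slides, and slide and cells cannot be told apart here. Around Mdm2, bins were above 0 from 800 kb before to 400 kb after it on all 4 arrays, and below 0 from 600 kb after it on, with -0.92 to -0.76 at 800 kb (10 probes). The bin at 400 kb after Mdm2 was 0.03 (control), 0.75 (KO), 0.27 (non-induced) and 0.72 (induced).

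The DNA 1 Mb before Myc was late, with timing of -0.24 (control), -0.79 (KO), -0.58 (non-induced) and -0.65 (induced). On the other side the control array differed from the rest. At 800 kb after Myc, timing was 1.25 (control), 0.36 (KO), 0.33 (non-induced) and 0.48 (induced) (7 probes).

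**Figure D2:**
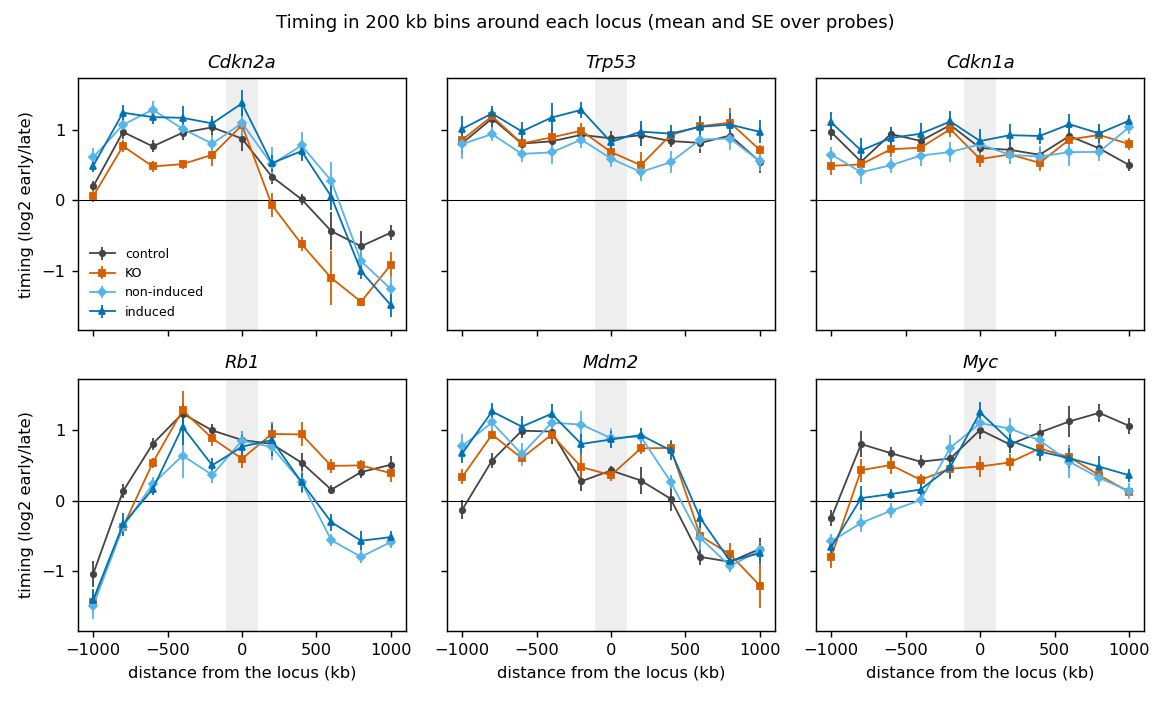
Timing (y axis, log2) in bins of 200 kb against distance from each locus in kb (x axis), with 1 line per array and the SE over probes; the grey band is the 200 kb of the locus itself. Trp53 and Cdkn1a stay above 0 throughout, while Cdkn2a, Rb1, Mdm2 and Myc each have late bins on a side.

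The choice of 100 kb set no visible edge in medians over the loci. The last probes inside the distance, 12 in all and 39.7 to 97.3 kb from the positions, had a median timing of 0.89 (control), 0.70 (KO), 0.92 (non-induced) and 1.31 (induced). The first probes outside it, 100.8 to 115.3 kb away, had medians of 0.90, 0.60, 0.87 and 1.19 in the same order. Single loci did step at the edge, in both directions. In control cells, timing went from 0.92 inside to -0.27 outside before Mdm2, and from 0.24 to 1.31 before Trp53.

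The first comparison of the design was KO against control. Myc replicated later on the KO array, where timing was 0.49 ± 0.16 against 1.01 ± 0.13 in control, which differ by -0.52 ± 0.09 (SE over 12 probes). It was the only locus of the 6 past the rule used for calls, a size of at least 0.45 and of at least 3 SE. The first number is 0.25 of the span from the 10th to the 90th percentile of control windows. The count of 1 later locus of 6 stands beside 30.2% of all windows called, 22.2% as later and 8.02% as earlier, so the count itself does not set the loci apart from the genome. Timing was lower in KO at 11 of the 12 Myc probes. The exception was the probe nearest to the gene position, 3.4 kb after it, at 0.04. The 3 probes before the position had differences of -0.34, -0.54 and -0.23, and the 8 further ones after it had -0.98 to -0.34.

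**Figure D3:**
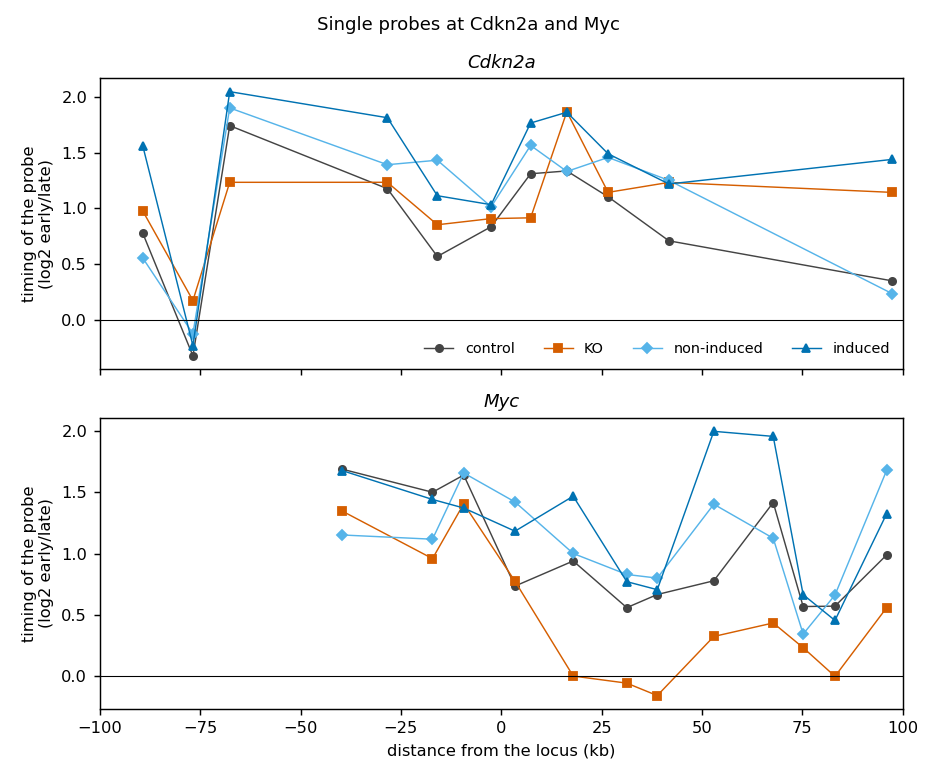
Timing of single probes (y axis, log2) against their distance in kb from the position of Cdkn2a (top) and Myc (bottom), with 1 line per array. At Myc the KO line lies below the control line at 11 of 12 probes, and at Cdkn2a the only values below 0 are those of 3 arrays at the probe at -76.8 kb.

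At Myc, the late channel carried most of the difference: late signal was higher in KO by 0.38 ± 0.11 and early signal lower by -0.10 ± 0.14. The flanks to 1 Mb were also lower in KO than in control, by -0.35 ± 0.05 (89 probes). Flank timing was 0.82 in control against 0.47 (KO), 0.44 (non-induced) and 0.46 (induced). In the flanks the control array thus stood above the rest, whereas at the locus itself the KO array stood below the rest. The call is lost when arrays are centred on the median window in place of the median probe, where the difference is -0.29, and over 250 kb on each side, where it is -0.33. It is also lost over odd probes alone, at -0.39, and at a threshold of 0.35 of the span.

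The other 5 loci were not called. Rb1 had -0.27 ± 0.07, which is over 3 SE but short of 0.45, and 16 of its 22 probes were lower in KO. Trp53 had -0.20 ± 0.20, Cdkn1a -0.16 ± 0.11 and Mdm2 -0.07 ± 0.09, each within 2 SE of 0. The Trp53 value rests on the dim probe, which differed by -3.66: without it the difference is -0.0027 ± 0.06, and 10 of the remaining 18 probes were higher in KO. Cdkn2a had 0.19 ± 0.12, with 9 of its 11 probes higher in KO, but lay below 0 in 2 of 16 alternative settings, at the lowest -0.18. The median over the 6 loci was -0.18, or -0.11 without the dim probe of Trp53, and that over all windows was -0.16. Over the 2977 windows whose control timing lay within the range of the 6 loci, the median was 0.007.

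The second comparison was induced against non-induced mutant cells, which share a slide. No locus was called, at a threshold of 0.52, where 12.4% of all windows were called, 11.9% as later and 0.467% as earlier. With 1 array per group no p-value stands behind this count of 0. Cdkn2a differed by 0.28 ± 0.14, from 1.09 to 1.37, and 8 of its 11 probes were higher in induced cells. Its value depended on the scaling: it was 0.53, past the rule, with arrays centred on their median windows, but -0.04 once arrays had the same spread and 0.04 after removal of a linear trend on timing. Trp53 had 0.23 ± 0.13, and 14 of its 19 probes were higher. Without its dim probe Trp53 had 0.34 ± 0.09, the highest of the 6 and still not called. Myc had 0.15 ± 0.12 with 6 probes in each direction and was below 0 in 3 of 16 alternative settings, Cdkn1a 0.05 ± 0.13, Mdm2 -0.02 ± 0.09 and Rb1 -0.09 ± 0.08. The flanks to 1 Mb of Trp53 and Cdkn1a had higher timing in induced cells by 0.37 ± 0.04 (167 probes) and 0.33 ± 0.03 (189 probes). These flank values were not scaled for spread. The span from the 10th to the 90th percentile of windows was 2.70 on the induced and 2.07 on the non-induced array. Whether the wider spread accounts for the flank values was not tested. The median over the 6 loci was 0.10, against -0.13 over all windows. It was 0.15 over the 2967 windows whose non-induced timing lay within the range of the 6 loci.

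Non-induced against control cells served as a reference across slides and cells, with 19% of windows called by the same rule, 10.8% as later and 8.17% as earlier. No locus was called. Mdm2 came closest, at 0.46 ± 0.15, with 14 of 18 probes higher in non-induced cells. It reached the threshold of 0.45 but, at 0.4584, fell just short of its 3 SE of 0.4589. It was called in 4 of 16 alternative settings, among them the deposited log ratios, where the value was hardly different, at 0.4607. Trp53 had -0.29 ± 0.10 with 14 of 19 probes lower, and Cdkn2a had 0.22 ± 0.09. The remaining values were 0.09 ± 0.12 at Myc, 0.05 ± 0.15 at Cdkn1a and -0.01 ± 0.10 at Rb1.

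**Figure D4:**
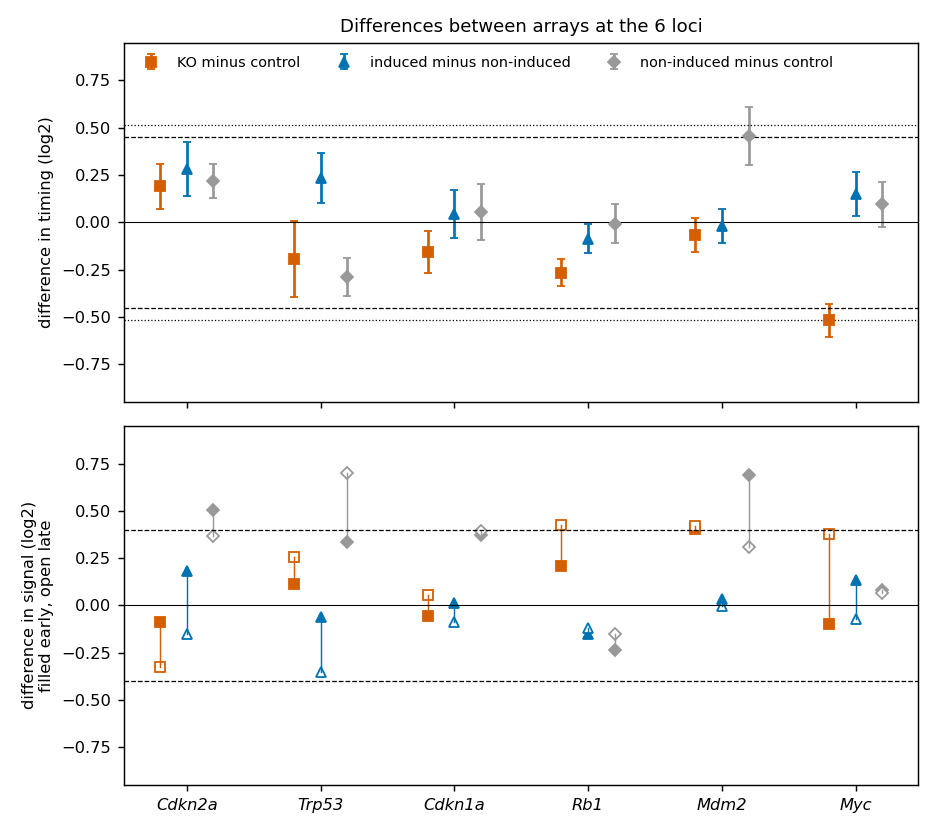
Differences between arrays at each locus on the log2 scale, with timing and its SE over probes in the upper panel and the early (filled) and late (open) signals in the lower panel. In the upper panel, dashed lines mark the threshold of 0.45 and dotted lines that of 0.52; in the lower panel, dashed lines mark 0.4, which both channels must pass in the same direction, as only Mdm2 does in KO minus control.

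The signal of each channel was then examined, because a change of copy number moves both channels the same way while a change of timing moves them apart. Signals are log2 values over the autosomal median of the channel and array. Newly made DNA was labelled, immunoprecipitated and amplified, so the total signal, the mean of both channels, is not a direct measure of copy number. On an ideal scale, loss of 1 of 2 copies would give -1.

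At Cdkn2a, early signal was 0.05 (control), -0.04 (KO), 0.55 (non-induced) and 0.73 (induced) (SE over probes 0.25 to 0.26). Late signal was -0.85, -1.17, -0.48 and -0.64 in that order (SE 0.30 to 0.37). On all 4 arrays, both channels of all 11 probes were well above background, as were those of 89.1 to 94.9% of autosomal spots. This flag does not measure copy number. The KO array had the lowest total signal at this locus. It lay below the mean of the other 3 arrays by -0.50 ± 0.09, and each of the 11 probes was lower, by -0.92 to -0.05. Totals were -0.40 (control), -0.61 (KO), 0.03 (non-induced) and 0.05 (induced), so the arrays of a slide lay together. Slide and cells cannot be told apart in this gap. Against control alone, on the same slide, the KO total differed by -0.20 ± 0.11. The flanks to 1 Mb differed by 0.17 ± 0.06 in the opposite direction and the median window of chromosome 4 by 0.03. Whether this reflects copy number in part of the cells was not tested.

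Cdkn1a had early signals of -0.26, -0.32, 0.11 and 0.12 on the control, KO, non-induced and induced arrays. Its late signals were -1.02, -0.97, -0.63 and -0.72. The means of its channels had SEs of 0.41 to 0.50, and 15 to 16 of its 18 probes had both channels well above background. Trp53 had early signals of -0.16, -0.05, 0.17 and 0.11 and late signals of -1.06, -0.80, -0.36 and -0.71, with 17 to 18 of 19 probes having both channels well above background. Non-induced signal was the highest of the 4 arrays in the late channel at both genes.

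Rb1 had early signals of 0.83 (control), 1.04 (KO), 0.59 (non-induced) and 0.44 (induced). Its late signals were -0.05, 0.37, -0.20 and -0.33 in that order, and 21 to 22 of its 22 probes had both channels well above background. The KO array was the highest in both channels, with a total above the mean of the other 3 arrays by 0.49 ± 0.06 and single probes from -0.12 to 0.88. Totals were 0.39 (control), 0.70 (KO), 0.19 (non-induced) and 0.06 (induced). Both arrays of the other slide thus lay lowest, and slide and cells cannot be told apart in this gap. Against control, KO was higher by 0.21 ± 0.09 in early and 0.43 ± 0.09 in late signal, while the flanks differed by 0.02 ± 0.04 in total and the median window of chromosome 14 by -0.12. With the chromosome's median window difference taken off each channel, the total difference was 0.50 and both channels passed the rule given below. Rb1 passed in only 1 of 13 alternative settings and not in the main one. Relative to the flanks to 1 Mb the difference was 0.29, without a call.

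Mdm2 had early signals of 0.40, 0.80, 1.09 and 1.12 and late signals of -0.05, 0.37, 0.26 and 0.25 on the control, KO, non-induced and induced arrays. Control was the lowest of the 4 in both channels, with a total below the mean of the others by -0.47 ± 0.11. Myc had early signals of 0.51, 0.42, 0.59 and 0.73 and late signals of -0.51, -0.14, -0.45 and -0.52. Its total differed least between arrays, each lying within -0.11 to 0.08 of the mean of the others. Both channels were well above background at 17 to 18 of 18 probes of Mdm2 and at 11 to 12 of 12 of Myc.

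**Figure D5:**
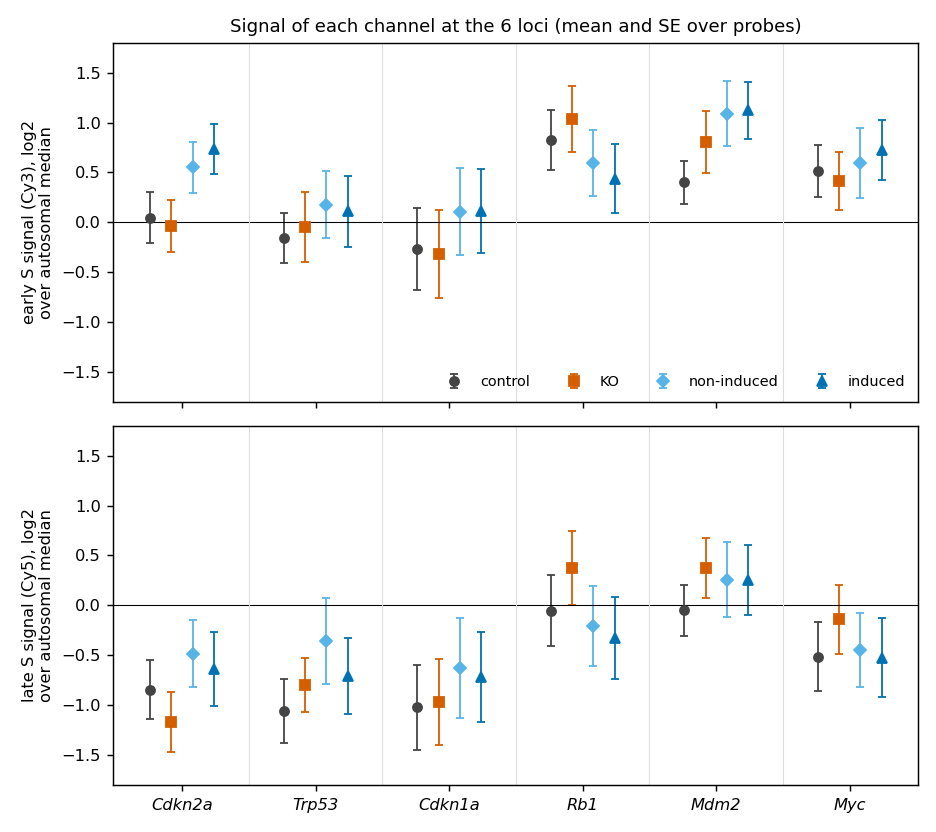
Early S (upper panel) and late S signal (lower panel) of the 6 loci on the 4 arrays, in log2 over the autosomal median of the channel, as the mean and SE over probes. The KO array is the highest at Rb1 in both panels, and at Cdkn2a it is the lowest in both, at -0.04 and -1.17.

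A locus was called shifted where both channels differed by at least 0.4 in the same direction. In KO against control this held for Mdm2 only, where early signal was higher by 0.40 ± 0.13 and late signal by 0.42 ± 0.08. By the same rule 24.1% of all windows were shifted, 7.07% higher in both channels and 17% lower. The call is lost in 8 of 13 alternative settings, and relative to the flanks to 1 Mb the total difference is 0.18 in place of 0.41. The 6 totals ranged from -0.20 to 0.41, while medians of single autosomes themselves ranged from -0.31 on chromosome 3 to 0.26 on chromosome 16.

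In induced against non-induced cells no locus was shifted, and 0.25% of all windows were, 0.0833% higher and 0.167% lower. The 6 totals differed by -0.21 to 0.03, with Trp53 the lowest and Myc the highest. In non-induced against control cells no locus passed either, where 35.8% of windows did, 15.1% higher and 20.7% lower. Trp53, Mdm2, Cdkn2a and Cdkn1a had higher totals there, by 0.52 ± 0.16, 0.50 ± 0.18, 0.44 ± 0.17 and 0.38 ± 0.19. All 4 passed at a threshold of 0.3, but the share of all windows at that threshold was not analysed here, so this count cannot be set against the genome. At Trp53 and Cdkn1a, the flanks to 1 Mb were as high, at 0.56 ± 0.05 and 0.44 ± 0.05.

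Shorter losses were sought as runs of 3 or more consecutive probes whose total on an array lay at least 1 below the mean of the other 3 arrays. None of the 6 loci held such a run, and 6.48% of all windows did. No probe of Cdkn2a or Myc reached -1, and the lowest were -0.97 at Cdkn2a in control and -0.73 at Myc in control cells. Trp53 had 4 such probes in control cells, none of them next to another, and its lowest value there was -1.31. With a median of 8695 to 12876 bp between probes, a loss shorter than about 3 probes would not be found by this rule. Longer losses could also escape it, if present in part of the cells only or shared by some or all of the 4 arrays. A shared loss also lowers the mean of the other 3 arrays, with which each array is compared. A loss of a single copy would on an ideal scale lie at the cut itself and could be missed too. The total on X, lower in KO than in control by a median of -0.57, was itself short of a depth of 1. Whether X differs in copy number between these arrays was not tested. The absence of runs at this depth cannot speak to losses of a single copy. At a depth of 0.58 in place of 1, 4 of the 6 loci held a run, as did 38.1% of all windows.

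Windows elsewhere in the genome had closely similar timing on the 4 arrays. For each locus the 3 windows of 200 kb with the smallest Euclidean distance over the 4 timing values were listed. For Myc these began at 87000001 on chromosome 6, 151400001 on chromosome 7 and 146200001 on chromosome 6, at distances of 0.10 to 0.13. The first of them had 0.94 (control), 0.53 (KO), 1.05 (non-induced) and 1.22 (induced), and 35 windows lay within 0.25 of Myc. The nearest windows of Cdkn2a, on chromosome 10 from 120200001, and of Trp53, on chromosome 2 from 117600001, both lay at 0.06. Those of Cdkn1a, Rb1 and Mdm2 began at 39000001 on chromosome 18, 29800001 on chromosome 5 and 102600001 on chromosome 15, at 0.08 to 0.09. Within 0.25 lay 209 windows for Cdkn2a, 310 for Trp53, 317 for Cdkn1a, 108 for Rb1 and 72 for Mdm2. This likeness rests on 4 arrays, which share 2 slides, and is a description only.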

How the data were processed

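The file headers name Agilent Feature Extraction 11.5.1.1 and build mm9; version 9.1 stands in the submitters' processing notes. Processed signals are, per the file headers, intensities with background subtracted and dyes scaled. The deposited log10 ratios, late over early, equalled those of the deposited value table within 1e-09 in all 180880 spots of each array. Flags of spot quality, other values of 0 or 1, were used as deposited. The 6575 control spots and 154 to 447 spots per array flagged as outliers (non-uniform pixels or replicate population) were dropped. Log2 values were averaged over the spots of a probe, and each channel and each log2 ratio was centred on its autosomal median, with no loess or quantile step. Windows of 200 kb needed 5 or more of 169660 probes usable on all arrays, which gave 12000. The precision is limited by 1 array per group. The rules for timing and for both channels were tested on simulated data, the rule for runs was not. All 6 members are named by rule. The members, lists and rules were chosen with earlier results of these data known. A list of other genes of these pathways was not analysed here, since the files pair probes with positions only. Alternatives covered background correction (normexp, limma 3.58.1 in R 4.3.3), normalization, filters, width, centring and thresholds. Computation was in Python 3.11.15 with pandas 2.3.3, numpy 2.4.6 and matplotlib 3.10.9.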

Additional observations from a re-analysis of the deposited data

Results flagged for a closer look

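Myc timing had values of opposite sign in the 2 comparisons of a mutant with its own reference array: -0.52 ± 0.09 in KO minus control and 0.15 ± 0.12 in induced minus non-induced cells (SE over 12 probes). The opposite sign is not established, since the second value is within 2 SE of 0, had 6 probes in each direction and turned below 0 in 3 of 16 alternatives, at -0.14 with arrays scaled to the same spread, -0.08 with the linear trend removed and -0.07 over 250 kb on each side. The difference of these differences was -0.67 ± 0.14, and it was not tested, since each group has 1 array. Its SE combines the SEs of the 2 differences as if they were independent, although both come from the same 12 probes. It was not paired by probe and can misstate the precision. Among the other loci, the difference of differences ranged from -0.43 ± 0.24 at Trp53 (-0.34 ± 0.11 without its dim probe) to -0.05 ± 0.13 at Mdm2. Their SEs were made the same way.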

How the results depend on the processing

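No paired analysis was possible because each group has 1 array. All 6 loci stayed above the median window on every array in the 11 alternatives tried. Of the 16 alternatives for timing, the count of called loci in KO against control went from 1 (Myc) to 0 in 4: 250 kb on each side, odd probes, centring on the median window and a threshold of 0.35 of the range. Myc stayed below 0 in all 16, between -0.65 and -0.29. In induced against non-induced cells the count went from 0 to 1 (Cdkn2a) with centring on the median window. In non-induced against control cells it went from 0 to 1 (Mdm2) with the deposited value table, 250 kb on each side, the median over probes and centring on the median window. For shifts of both channels in KO against control, the count went from 1 (Mdm2) to 0 with normexp, with well measured probes only, 250 kb on each side, odd probes, quantile normalization, relative to the flanks and at a threshold of 0.58; relative to the chromosome median it was 1, but Rb1 in place of Mdm2. In non-induced against control cells it went from 0 to 1 with flagged spots kept and with quantile normalization. It went to 2 over 50 kb on each side and over even probes, and to 4 at a threshold of 0.3. The share of all windows shifted in these settings was not analysed here. Loci with a run of depleted probes went from 0 to 4 at a depth of 0.58, where 38.1% of all windows held a run. The cause was not tested except where the alternative is a looser or stricter threshold. Leaving out the dim probe of Trp53, an alternative chosen after seeing the data, gave no call at Trp53 in any comparison. Signal over background limits Cdkn1a most, where 15 to 16 of 18 probes were well above background.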
